A study of Mus musculus with 6 samples.

Results

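The genes for mitochondrial ribosomal proteins were taken as every row of the deposited table whose symbol is Mrpl or Mrps followed by a number and at most 1 letter. This gave 76 of 17428 genes. Of these, 49 encode proteins of the large subunit of the mitochondrial ribosome and 26 encode proteins of the small subunit, by present knowledge rather than by name, since *Mrps18a* and *Mrps30* encode large-subunit proteins. The last one, *Mrps36*, is now known to encode a subunit of the 2-oxoglutarate dehydrogenase complex and not of the ribosome. All 76 genes passed the filter on low values that is described with the units.

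RNA was sequenced from EpH4 cells, a near-normal mouse mammary epithelial cell line, in 3 states with 2 libraries each. E cells were grown in normal medium with serum and insulin. M cells had received TGFβ1 in that medium for 7 days, and RE cells had received TGFβ1 for 7 days and then normal medium without it for another 4 days. All states come from 1 unmodified cell line, so that the libraries show how this line responds in culture and not how mammary tissue does. Because RE cells were collected later than M cells, time in culture and removal of TGFβ1 cannot be told apart in M vs. RE. No library is labelled as untreated cells kept for the same time as M or RE cells. Time in culture and treatment therefore cannot be told apart in E vs. M and E vs. RE either.

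The mitochondrial ribosome translates the few proteins that mitochondrial DNA encodes, which are core subunits of the respiratory chain and ATP synthase. Its RNAs come from mitochondrial DNA, whereas all of its proteins are encoded in the nucleus, made in the cytosol and imported. The small subunit binds the mRNA and reads its codons. The large subunit joins the amino acids and holds the tunnel through which the new chain leaves the ribosome. Compared with the bacterial ribosome it has lost RNA and gained proteins that bacteria lack, so that its proteins fall into homologues of bacterial proteins (46 of the genes here) and mitochondria-specific ones (29 genes). *Mrps18a* and *Mrps18b* are counted among the 29 although they are relatives of bacterial S18.

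The values are coverage, that is, sequenced bases summed over each gene, and are given here as ppm of a library's TMM-scaled total. A gene entered the tests where 2 or more libraries held 500 bases or more of it, which left 13893 genes. These were fitted by limma as log2(ppm + 0.1), and p-values were adjusted over all 13893 by Benjamini-Hochberg, comparison by comparison. Log2 fold changes above 0 stand for higher levels in the second-named group. A gene is counted as a DEG where the log2 fold change is above 1 in either direction and the adjusted p is below 0.01, and as having risen or fallen where the adjusted p is below 0.05. Libraries held between 35782513 and 47928557 reads' worth of 50 bases, and the lowest coverage of any of the 76 genes in any library was 418 bases, for *Mrpl23* in the first M library.

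The E libraries stood apart from each other. The SD of the log2 difference between replicates over all genes tested was 0.56 in E, 0.32 in M and 0.31 in RE cells. The first E library was higher than the second for 71 of the 76 genes, with a median log2 difference of 0.40, against 0.01 over all genes tested. Over all genes this difference followed transcript length: its median was 0.36 for transcripts of up to 1000 bases and -0.32 for those over 4000 bases. Transcript length here is that of the longest annotated protein-coding transcript of a gene, and its median over the 76 genes is 1302 bases. Each comparison with E cells is therefore given also without each E library and with the libraries' dependence on GC content and transcript length taken out.

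Markers of the cell type moved between the states. Of the mammary epithelial genes, *Cdh1* was covered at 243 to 329 ppm in every library and did not pass in any comparison, and *Krt19* was near 0, at 0.0421 to 0.161 ppm. *Cldn7*, of tight junctions, fell by 1.89 in E vs. M and by 1.34 in E vs. RE. *Krt18* fell by 1.35 in E vs. RE, and *Krt8* rose by 0.66 in E vs. M and fell by 0.67 in E vs. RE. The covered genes of this list summed to 1245 to 1511 ppm in E, 1177 to 1215 ppm in M and 711 to 756 ppm in RE cells. Of 5 myoepithelial genes, 2 rose in E vs. M, *Acta2* (0.252 and 0.685 ppm in E, 75.3 and 83.2 ppm in M cells) and *Krt14* (by 1.42), and 2 rose in E vs. RE, *Acta2* and *Trp63* (by 1.24). Over all genes tested, 21.4% rose in E vs. M and 16.8% in E vs. RE. Among leukocyte genes, *Ptprc* and *Cd3e* stayed below 0.1 ppm in every library, and *Cd14* rose by 1.38 in E vs. M and 1.45 in E vs. RE, with a sum of the list of 17.0 to 17.8 ppm in E and 30.6 to 34.2 ppm in M and RE cells. Among endothelial genes, *Kdr* and *Tie1* stayed below 0.1 ppm, and *Cdh5* was listed at 0 in both E libraries, at 2.32 and 2.09 ppm in M and at 0.0421 and 0.0907 ppm in RE cells. The adipocyte genes summed to 9.02 and 3.12 ppm in E, 0.0558 and 0.0732 ppm in M, and 2.20 and 1.87 ppm in RE cells. The part of these markers in the levels of the 76 genes was not tested.

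**Figure D1:**
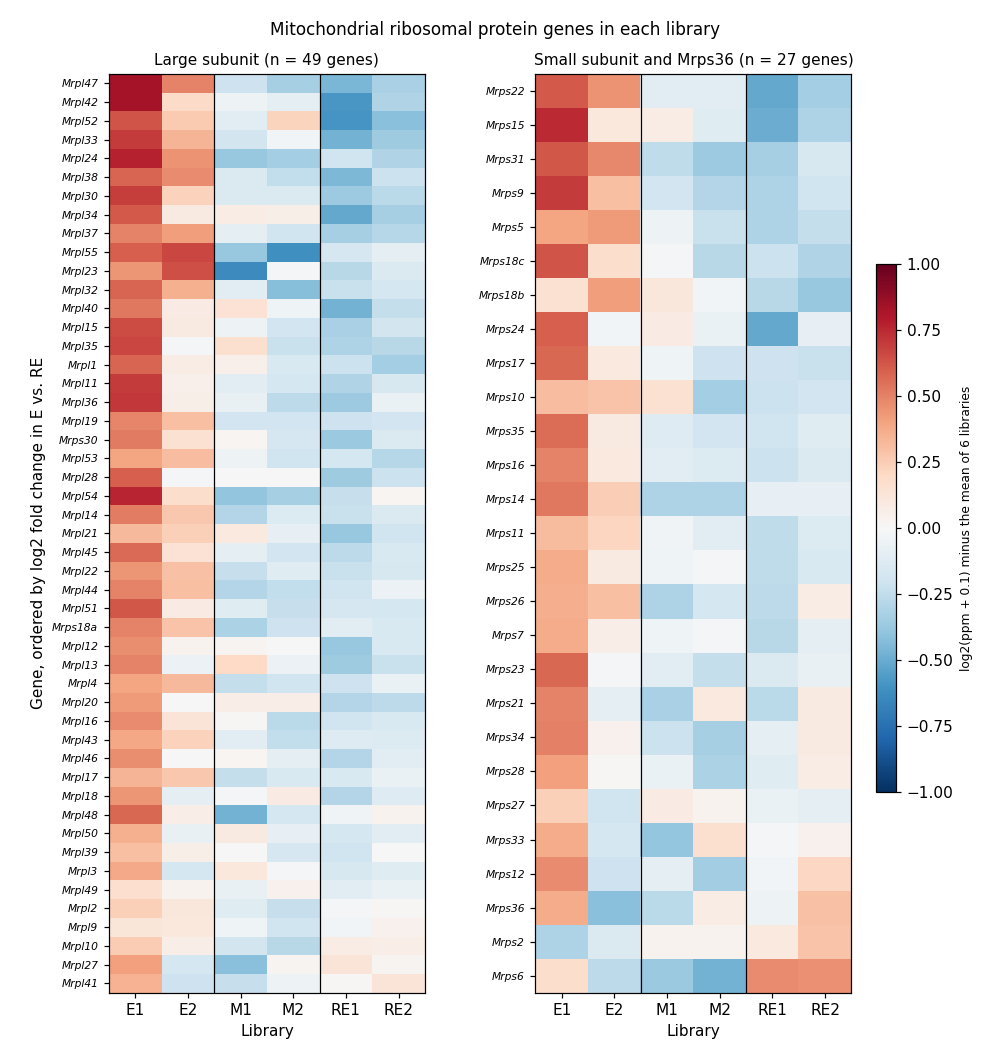
Level of each of the 76 genes in each library, as log2(ppm + 0.1) minus the gene's mean over the 6 libraries (colour, scale at right), with large-subunit genes on the left and small-subunit genes and *Mrps36* on the right. Genes are ordered by log2 fold change in E vs. RE, and black lines separate E, M and RE. The first E library is the highest of the 6 for 70 genes.

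Per kilobase of transcript, the 76 genes had a median level of 22.0 ppm over the 6 libraries (quartiles 11.4 and 31.5), against 8.98 ppm for the 12973 genes tested that have a transcript length, and 63 of the 76 were above that value. The large-subunit genes had a median of 22.5 ppm per kilobase and the small-subunit genes 19.6, with overlapping ranges. The highest 3 were *Mrpl38* (83.5 ppm per kilobase), a mitochondria-specific protein, *Mrpl28* (74.7), a homologue of a bacterial protein, and *Mrps15* (72.4), a homologue of bacterial S15, which binds the small-subunit RNA. In E, M and RE cells the mean levels of *Mrpl38* were 116, 70.4 and 64.1 ppm per kilobase, those of *Mrpl28* 91.3, 73.0 and 59.9, and those of *Mrps15* 96.0, 68.6 and 52.8. The order of these 3 therefore rests on differences that are smaller than the change of each gene between states.

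The lowest 3 were *Mrpl23* (0.527 ppm per kilobase), *Mrps36* (0.876) and *Mrpl48* (1.55). The place of *Mrpl48* rests on its longest annotated transcript of 4285 bases. Its mean over the libraries was 6.63 ppm before division by length, above *Mrps33* at 1.76 ppm. *Mrpl23* belongs to the region of the exit tunnel with *Mrpl22* and *Mrpl24*, which stood at 17.4 and 31.5 ppm per kilobase. Since these proteins occur once in each ribosome, the level of *Mrpl23* is set beside a feature of its sequence. The RefSeq annotation names a pseudogene copy for 4 of the 76 genes, *Mrpl23*, *Mrps36*, *Mrpl48* and *Mrpl27* (8.01 ppm per kilobase). Only copies named after the gene's own symbol were looked for, so other members may have copies too. The study mapped unique reads, and whether reads that match copies were dropped is not given in the sources used here. The part of such copies in these levels was not tested, and the levels of these 4 genes are uncertain. The spread between replicates over the 76 genes, as the SD of the log2 difference, was 0.23 in E, 0.20 in M and 0.11 in RE cells. In E cells 13 genes differed by over 1.5-fold between replicates, in M cells 1 and in RE cells 0. The widest differences were those of *Mrps36* (0.805 and 0.425 ppm in E cells), *Mrpl35* (69.3 and 43.2 ppm) and *Mrps12* (14.6 and 9.05 ppm), the latter a protein of the decoding centre. In each of them the first E library was the higher one.

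E vs. M asks how the genes differed after 7 days of TGFβ1. The mitochondrial ribosomal protein genes were lower in M cells as a group and by a moderate amount: the log2 fold change was below 0 for 74 of the 76 genes, against 50.1% of all genes tested, and its median was -0.44, against -0.00. By the adjusted p, 27 genes fell, or 35.5% of the 76 against 20.2% of all genes tested, and 0 rose, against 21.4% (41.6% in either direction). By limma's unadjusted p below 0.05, 40 were lower and 0 higher, against 25.4% and 25.7% of all genes. Only 1 gene was a DEG (1.32%), against 16.8% of all genes tested. The 2 M libraries were both below both E libraries for 57 genes (75%, against 35.6% of all genes) and above them for 1, against 35.5%. In bulk samples, fewer cells of a type and less RNA per cell cannot be told apart.

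Among the large-subunit genes, 20 of 49 fell and the median was -0.48. The DEG was *Mrpl55*, the homologue of bacterial L31, at 12.5 and 13.1 ppm in E, 6.29 and 5.34 ppm in M, and 7.30 and 7.69 ppm in RE cells. Both E libraries were high and close to each other, and both M libraries were the lowest. In limma's test it fell by 1.13 ± 0.17 (SE) on the log2 scale, with an adjusted p of 0.0020. *Mrpl24*, of the exit tunnel, was at 68.3 and 54.9 ppm in E, 30.8 and 31.6 ppm in M, and 34.9 and 32.5 ppm in RE cells. The 4 M and RE libraries lay close together and well below both E libraries. It fell by 0.97 ± 0.15 (SE; limma, adjusted p = 0.0022). *Mrpl47*, the homologue of bacterial L29 at the mouth of the tunnel, fell by 0.94 ± 0.16 (SE; limma, adjusted p = 0.0034). *Mrpl22*, which lines the tunnel, fell by 0.55 ± 0.15, and *Mrpl45*, which holds the ribosome to the inner membrane, by 0.50 ± 0.17. *Mrpl23* had a log2 fold change of -0.87 ± 0.34 that did not pass (limma, adjusted p = 0.078), with 0.534 and 0.629 ppm in E and 0.199 and 0.361 ppm in M cells. The other large-subunit genes that fell were *Mrpl4*, *Mrpl10*, *Mrpl14*, *Mrpl17*, *Mrpl19*, *Mrpl30*, *Mrpl32*, *Mrpl33*, *Mrpl37*, *Mrpl38*, *Mrpl43*, *Mrpl44*, *Mrpl53*, *Mrpl54* and *Mrps18a*. None of the 49 had a log2 fold change above 0, and the one nearest to it was *Mrpl3* (-0.06), a protein close to the peptidyl transferase centre.

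Among the small-subunit genes, 7 of 26 fell and the median was -0.41. The fall was largest for *Mrps31*, a mitochondria-specific protein, at 58.0 and 52.5 ppm in E, 31.6 and 29.2 ppm in M, and 29.9 and 33.6 ppm in RE cells. The M and RE libraries overlapped with each other and lay below both E libraries. It fell by 0.86 ± 0.14 (SE; limma, adjusted p = 0.0027). *Mrps9*, of the head of the subunit, fell by 0.74, and *Mrps14*, *Mrps22*, *Mrps26*, *Mrps34* and *Mrps5* fell by 0.69, 0.64, 0.58, 0.55 and 0.55. The only gene that was higher in both M libraries was *Mrps2*, at 17.9 and 20.1 ppm in E and 22.7 and 22.8 ppm in M cells. Its log2 fold change of 0.26 ± 0.15 did not pass (limma, adjusted p = 0.19). It was -0.03 when libraries were scaled by their totals, where the median of all genes was -0.29. *Mrps27*, a pentatricopeptide repeat protein, was at 0.03 ± 0.16 and was below 0 with that scaling (-0.26) and without the second E library (-0.21). *Mrps36* was at -0.07 ± 0.36, with overlapping groups. By origin, 15 of 46 homologues of bacterial proteins fell (median -0.41), as did 12 of 29 mitochondria-specific ones (median -0.48).

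**Figure D2:**
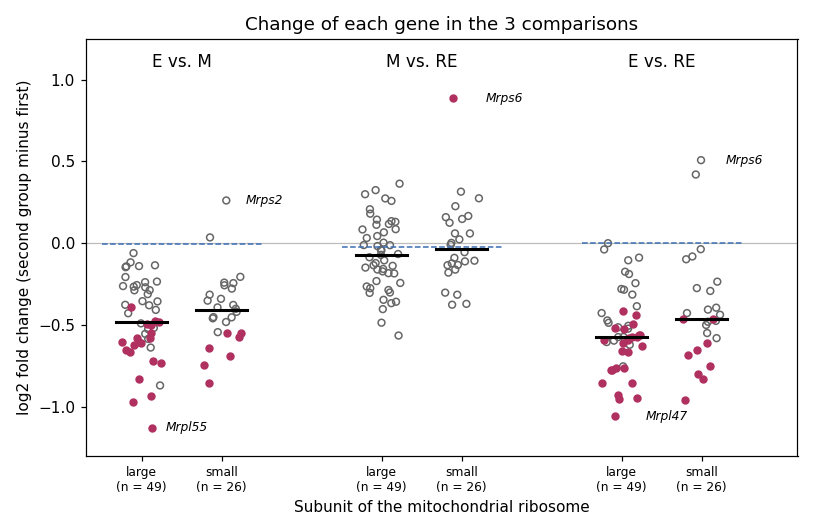
Log2 fold change of each large-subunit (n = 49) and small-subunit (n = 26) gene in each comparison, as 1 point per gene, filled where the adjusted p is below 0.05. Black bars are medians of the genes and dashed lines the median of all genes tested. In E vs. M the medians are -0.48 and -0.41 and in E vs. RE -0.57 and -0.47, while in M vs. RE they are -0.07 and -0.03, with *Mrps6* above all others.

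The amount of the fall in E vs. M depended on the E libraries. Without the first E library the median was -0.24, with 64 of 76 below 0 and 28 genes past an adjusted p of 0.05, 26 of them among the 27, when 53.7% of all genes passed. Without the second E library it was -0.64, with 67 genes past it, against 63.4% of all genes. Without the first or the second M library, 6 and 4 genes passed, against 19.5% and 19.8% of all genes, and none was a DEG. Without the first or the second RE library, 16 genes passed, against 31.4% of all genes, and 16 in a fit of only the E and M libraries, against 31.3%. With the dependence on GC content and length taken out, the median was -0.16 against 0.02 over all genes, 50 of the 76 were below 0, and 25 genes fell, against 45.3% of all genes that passed in either direction. Of the 27 genes, 17 still fell. *Mrpl55* then fell by 0.73 (limma, adjusted p = 0.011) and was no longer a DEG, whereas *Mrpl47*, at -1.02, was one.

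The fold changes in E vs. M were also set beside transcript length. In the 24 genes with transcripts of up to 1000 bases, the median was -0.46, and it was -0.44 over all genes of that length. In the 29 genes above that and up to 2000 bases it was -0.36 against -0.25. In the 14 genes above that and up to 4000 bases it was -0.41 against -0.02, and in the 9 genes over 4000 bases -0.50 against 0.32. Members with long annotated transcripts were thus lower in M cells while long genes in general were higher, and the short members were at the level of other short genes. The expressed transcript of a member may be shorter than its longest annotated one, which was not tested. The members' own difference between the E libraries was above 0 in every length class, at 0.45, 0.20, 0.41 and 0.28.

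**Figure D3:**
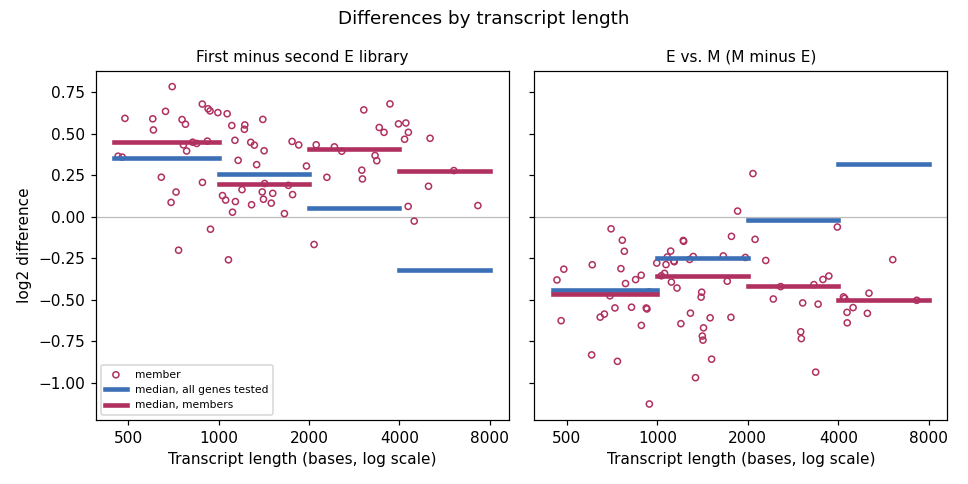
Log2 difference between the E libraries (left) and log2 fold change in E vs. M (right) of each of the 76 genes (open circles) against transcript length (log scale), with the median of the 76 genes and of all genes tested in 4 length classes as bars. The bars of all genes run from 0.36 to -0.32 on the left and from -0.44 to 0.32 on the right, whereas those of the 76 genes stay above 0 on the left and between -0.50 and -0.36 on the right.

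M vs. RE asks what happened in the 4 days after TGFβ1 was removed. The genes moved little as a group: the median log2 fold change was -0.06, against -0.02 over all genes, and 45 of 76 were below 0, against 51.7%. *Mrps6* was the 1 gene that rose by the adjusted p (1.32%, against 16.7% of all genes tested), and 0 fell, against 15%, or 31.7% in either direction (by limma's unadjusted p below 0.05, 1 was higher and 3 lower, against 21.8% and 21.2% of all genes). None was a DEG, against 12.7% of all genes tested. Groups did not overlap for 17 genes that were higher (22.4%, against 37.5%) and for 30 that were lower in RE cells (39.5%, against 41.1%). The test shares 1 estimate of the spread with the E libraries, whose replicates differed most. A fit of only the M and RE libraries gave 4 genes that rose and 12 that fell, when 56.2% of all genes passed, and array weights gave 4 and 13, against 55.9%. Without any 1 of the M or RE libraries, 0 genes passed, against 11.9% to 15.3% of all genes. Without the first E library 17 genes passed, against 56.8%, and without the second 16, against 56.7%, both well below the share over all genes. When libraries were scaled by their totals the median was 0.15, against 0.18 over all genes.

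*Mrps6* encodes the homologue of bacterial S6, which binds S18 on the platform of the small subunit. It was at 47.8 and 35.1 ppm in E, 32.6 and 30.5 ppm in M, and 58.5 and 58.1 ppm in RE cells. Both RE libraries were higher than all others, and both M libraries were the lowest. It rose by 0.89 ± 0.17 (SE) on the log2 scale in M vs. RE, or 1.85-fold, with an adjusted p of 0.0072 in limma's test. In E vs. RE its log2 fold change was 0.51 ± 0.17 (limma, adjusted p = 0.058), and 0.72 without the first E library, where it passed (limma, adjusted p = 0.00022). In E vs. M it was -0.38 ± 0.17 (limma, adjusted p = 0.11). In M vs. RE the adjusted p of limma was between 0.058 and 0.072 without 1 of the M or RE libraries, at a log2 fold change of 0.83 to 0.93. *Mrps6* overlaps *Slc5a3*, which encodes a myo-inositol transporter, in the RefSeq annotation. *Slc5a3* was at 8.96 ± 4.39 ppm in E, 25.7 ± 6.01 ppm in M, and 56.5 ± 11.8 ppm in RE cells (mean ± SD, n = 2 each), and its 3 states did not overlap. Both genes were thus highest in RE cells, but *Slc5a3* was higher in M than in E cells, where *Mrps6* was not. How shared bases were counted is not given in the sources used here, and the part of *Slc5a3* in the coverage of *Mrps6* was not tested.

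Other genes moved less in M vs. RE and did not pass. The most positive after *Mrps6* were *Mrpl55* (0.36 ± 0.17), *Mrpl48* (0.32 ± 0.23) and *Mrps12* (0.31 ± 0.25). The most negative were *Mrpl52* (-0.57 ± 0.20), a mitochondria-specific protein, *Mrpl34* (-0.49 ± 0.21), *Mrpl40* (-0.40 ± 0.18) and *Mrps15* (-0.38 ± 0.22). Their adjusted p in limma's test ran from 0.066 for *Mrpl52* to 0.38 for *Mrps12*. *Mrpl52* was at 19.1 and 14.8 ppm in E, 11.5 and 14.5 ppm in M, and 8.19 and 9.24 ppm in RE cells. Its RE libraries were the lowest, and its M libraries lay just below the second E library at most.

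E vs. RE asks whether the genes were back at their E levels after 4 days without TGFβ1. As a group they were lower than in E cells: the log2 fold change was below 0 for 73 of 76 genes, against 50.1% of all genes tested, with a median of -0.52, against -0.00. By the adjusted p, 35 genes fell (46.1%, against 13.6% of all genes tested) and 0 rose, against 16.8% (30.4% in either direction). By limma's unadjusted p below 0.05, 53 were lower and 2 higher, against 20.5% and 23.1% of all genes. Only 1 gene was a DEG (1.32%), against 9.09% of all genes tested. The 2 RE libraries were both below both E libraries for 63 genes (82.9%, against 33.3%) and above them for 2, *Mrps6* and *Mrps2*, against 33.7%. E vs. RE and E vs. M share the E libraries and are not independent of each other.

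Of the large-subunit genes, 26 of 49 fell, with a median of -0.57. The DEG was *Mrpl47*, at 62.1 and 49.1 ppm in E, 30.1 and 27.6 ppm in M, and 25.2 and 27.7 ppm in RE cells. The E libraries were about 2-fold above the M and RE libraries, which overlapped with each other. It fell by 1.06 ± 0.16 (SE; limma, adjusted p = 0.0038). *Mrpl42*, a mitochondria-specific protein, was at 26.4 and 16.9 ppm in E, 14.2 and 13.9 ppm in M, and 9.85 and 12.0 ppm in RE cells. Its E libraries differed more from each other than its M and RE libraries did. It fell by 0.95 ± 0.23 (SE; limma, adjusted p = 0.020). *Mrpl52* fell by 0.95 ± 0.20, *Mrpl33* by 0.93 ± 0.17, and *Mrpl24* and *Mrpl38* by 0.86 each. At the other end, *Mrpl41* was at -0.00 ± 0.22, with overlapping groups.

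Of the small-subunit genes, 9 of 26 fell, with a median of -0.47. *Mrps22*, a mitochondria-specific protein, was at 86.7 and 77.4 ppm in E, 52.3 and 52.5 ppm in M, and 39.6 and 44.6 ppm in RE cells. The 3 states did not overlap, in the order E, M, RE. It fell by 0.96 ± 0.13 (SE; limma, adjusted p = 0.0028) in E vs. RE, and its step in M vs. RE, -0.32 ± 0.13, did not pass (limma, adjusted p = 0.11). *Mrps15*, *Mrps31*, *Mrps9*, *Mrps5*, *Mrps18c*, *Mrps18b*, *Mrps14* and *Mrps11* fell by between 0.83 and 0.46. *Mrps2* was at 23.8 and 27.1 ppm in RE cells, above the E libraries, with a log2 fold change of 0.42 ± 0.15 that did not pass (limma, adjusted p = 0.065). *Mrps36* was at 0.14 ± 0.36, with overlapping groups.

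Without the first E library the median in E vs. RE was -0.32, with 66 of 76 below 0, and 37 genes passed, among them all of the 35, when 46% of all genes passed. Without the second it was -0.68 and 65 genes passed, against 56.4% of all genes. Without the first RE library 0 genes passed, against 5.68% of all genes, and without the second 5, against 10.8%. Without the first or the second M library 14 passed in each case, near the 18.8% and 19% over all genes. *Mrpl47* was a DEG only with all 6 libraries or without the second E library, among these fits, which gave 9 DEGs without the second E library and 0 without any other 1. With the dependence on GC content and length taken out, the median was -0.23 against 0.02 over all genes, 61 of the 76 were below 0, and 28 genes passed, 2 of them higher, which is near the 36% over all genes. Of the 35 genes, 19 still fell.

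**Figure D4:**
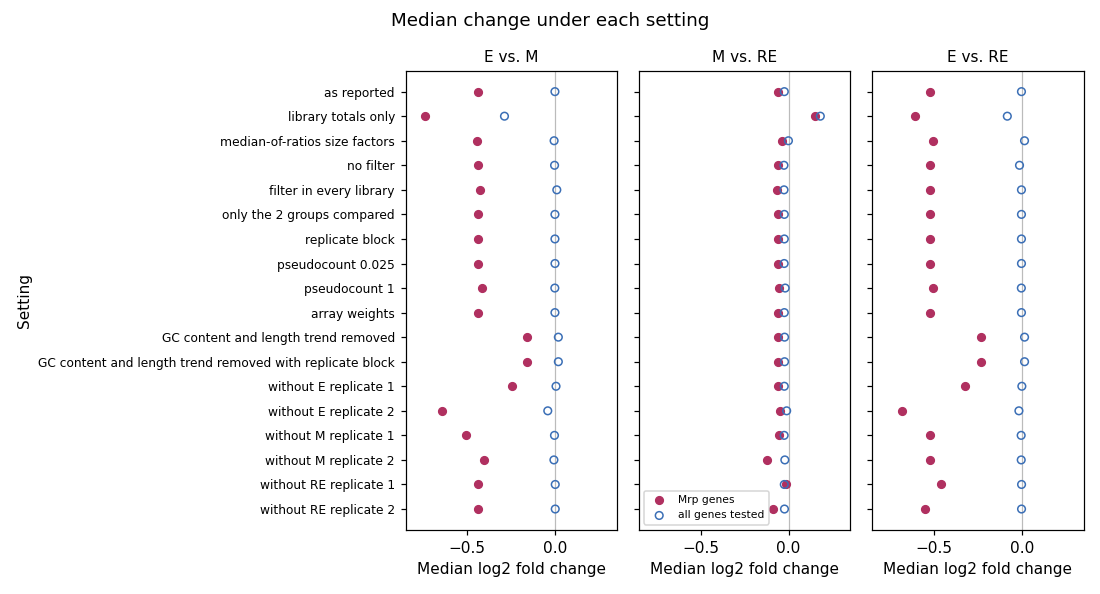
Median log2 fold change of the 76 genes (filled) and of all genes tested (open) in each comparison under each setting, from the fit as reported down to the fits without 1 library. In E vs. M and E vs. RE the median of the 76 genes stays below that of all genes in every row, from -0.74 to -0.16 and from -0.68 to -0.23, and in M vs. RE it lies near that of all genes.

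**Figure D5:**
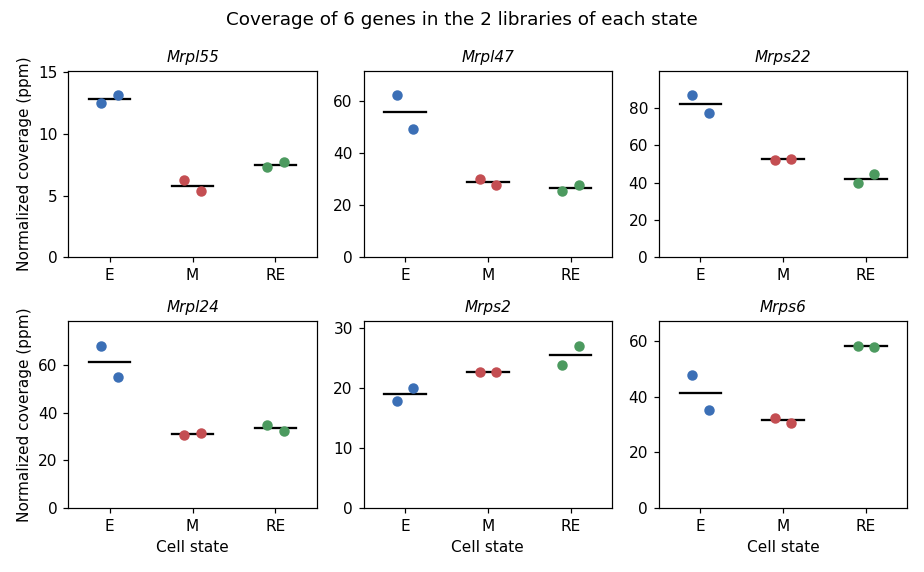
Normalized coverage (ppm, axes from 0) of 6 genes in the 2 libraries of each state (points) with their mean (bars). *Mrpl55*, *Mrpl47*, *Mrps22* and *Mrpl24* are lower in every M and RE library than in both E libraries, *Mrps2* is higher in them, and *Mrps6* is highest in RE cells, at 58.5 and 58.1 ppm.

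The bacterial protein S18 has 3 relatives in the mitochondrial ribosome, of which 1 lies in the large subunit. That one, *Mrps18a*, was at 57.7 and 49.9 ppm in E, 32.8 and 35.4 ppm in M, and 38.0 and 36.8 ppm in RE cells. It fell by 0.65 ± 0.14 (SE) in E vs. M and by 0.52 ± 0.14 in E vs. RE, and its M and RE libraries lay close together. *Mrps18b* was at 36.6 and 43.8 ppm in E, 35.6 and 32.2 ppm in M, and 27.1 and 25.2 ppm in RE cells. Its log2 fold change was -0.24 ± 0.15 in E vs. M, which did not pass, and it fell by 0.61 ± 0.15 in E vs. RE. *Mrps18c* was at 24.7 and 18.1 ppm in E, 15.9 and 13.2 ppm in M, and 13.8 and 13.0 ppm in RE cells, and fell by 0.66 ± 0.19 in E vs. RE, with -0.54 ± 0.19 in E vs. M, which did not pass. Each of the 3 was thus lower in RE than in E cells, and *Mrps18a* alone also fell in E vs. M, which is not a test of the difference between them. *Mrpl37* and *Mrps30* are related to each other in sequence and both belong to the large subunit. *Mrpl37* was at 117 and 111 ppm in E, 77.3 and 72.0 ppm in M, and 65.7 and 68.1 ppm in RE cells, and fell in both comparisons with E cells, by 0.61 ± 0.12 and 0.77 ± 0.12. *Mrps30* was at 140 and 108 ppm in E, 98.9 and 86.5 ppm in M, and 75.2 and 87.9 ppm in RE cells, and fell in E vs. RE, by 0.59 ± 0.17.

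The summed coverage of the 76 genes was 3813 and 3015 ppm in E, 2567 and 2408 ppm in M, and 2281 and 2445 ppm in RE cells. The large-subunit genes gave 2679 and 2121 ppm of it in E cells and between 1578 and 1808 ppm in the other 4 libraries. The E libraries were the highest, and they differed from each other by more than the M and RE libraries did among themselves. Of the library totals before normalization, the 76 genes took 0.427% and 0.321% in E, 0.225% and 0.218% in M, and 0.234% and 0.253% in RE cells.

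Further subunits of the mitochondrial ribosome carry other names. Of 7 such genes in the table, 3 fell in E vs. M and 4 in E vs. RE, against 20.2% and 13.6% of all genes tested. The medians of E vs. M, M vs. RE and E vs. RE were -0.53, -0.04 and -0.62. *Ict1*, a peptidyl-tRNA hydrolase of the large subunit, fell by 0.77 and 0.69 in the comparisons with E cells. *Aurkaip1* and *Chchd1*, of the small subunit, fell by 0.68 and 0.66 in E vs. M and by 0.72 and 1.02 in E vs. RE, and *Chchd1* was a DEG in E vs. RE. *Mrp63* fell by 0.62 in E vs. RE. *Dap3* of the small subunit, at 204 and 135 ppm in E, 121 and 109 ppm in M, and 107 and 113 ppm in RE cells, did not pass.

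Of 18 genes for assembly of the mitochondrial ribosome and modification of its RNA, 7 fell and 1 rose in E vs. M, 1 rose in M vs. RE, and 6 fell and 1 rose in E vs. RE. Over all genes tested, 20.2% fell and 21.4% rose in E vs. M, 16.7% rose in M vs. RE, and 13.6% fell and 16.8% rose in E vs. RE. *Tfb1m*, which methylates the small-subunit RNA, was at 42.8 and 37.2 ppm in E, 19.0 and 17.9 ppm in M, and 23.6 and 24.1 ppm in RE cells. It was a DEG in E vs. M, by -1.11 ± 0.14 (SE; limma, adjusted p = 0.00095). The GTPases *Mtg1* and *Gtpbp5* fell by 0.91 and 0.83 in E vs. M, and the methyltransferase *Ftsj2* by 0.99. *Nsun4*, another methyltransferase of the small-subunit RNA, went the other way, at 14.6 and 15.9 ppm in E, 25.4 and 22.8 ppm in M, and 38.8 and 35.1 ppm in RE cells. Its 3 states did not overlap, and it rose in each comparison, by 0.66, 0.61 and, as a DEG, 1.27.

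Of 13 mitochondrial translation factors and related proteins, 3 fell in E vs. M (*Mtif3*, *Mtif2* and *Lrpprc*, by 0.78, 0.60 and 0.51). In E vs. RE 2 fell (*Tsfm* by 0.71 and *Lrpprc* by 0.66). Beside each list here, the shares over all genes tested were 20.2% that fell and 21.4% that rose in E vs. M. They were 15% and 16.7% in M vs. RE, and 13.6% and 16.8% in E vs. RE. The counts of translation factors that fell in the comparisons with E cells were near these shares. Of 22 genes for the making of mitochondrial aminoacyl-tRNAs, 9 fell in E vs. M. Among them were *Ears2*, *Vars2* and *Rars2*, by 0.97, 0.95 and 0.78, and *Pars2*, which was a DEG. The 22 include *Qrsl1*, *Pet112l* and *Gatc*, which do not themselves charge tRNAs. In M vs. RE 6 of the 22 rose, among them *Lars2* (0.98), *Pet112l* (0.90) and *Wars2* (0.71), and 3 fell, with *Gars* at -0.85, when 31.7% of all genes passed. *Gars* and *Kars* also serve the cytosol. In E vs. RE 8 fell and 0 rose, with *Gars* at -1.08, *Vars2* at -0.71 and *Cars2* at -0.58. Of 9 genes for copying and transcribing mitochondrial DNA, 4 fell and 1 rose in E vs. M, 2 rose and 1 fell in M vs. RE, and 2 fell in E vs. RE. *Polg*, the DNA polymerase, rose by 0.48 in E vs. M and fell by 0.38 in M vs. RE, and its accessory subunit *Polg2* rose by 0.74 in M vs. RE. *Peo1*, the helicase, fell by 0.48 and then rose by 0.49. *Mterf*, a transcription terminator, and *Top1mt*, a topoisomerase, fell by 1.43 and 0.56 in E vs. M, and *Top1mt* and the single-strand binding protein *Ssbp1* fell by 0.87 and 0.65 in E vs. RE.

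Of 10 RNAs of the mitochondrial genome in the table, 0 passed in any comparison in limma's test, and 0 had an unadjusted p below 0.05, with medians of -0.12, 0.14 and 0.04 in the 3 comparisons in turn. Over all genes tested, 41.6%, 31.7% and 30.4% passed. These counts and medians include *mt-Co2*, *mt-Co3*, *mt-Atp6* and *mt-Nd3*, which were listed far below the others (see Other observations). The ribosomal RNAs *mt-Rnr1* and *mt-Rnr2* are absent from the deposited values. *mt-Co1*, for a subunit of cytochrome oxidase, was at 2981 and 2663 ppm in E, 2886 and 2691 ppm in M, and 2871 and 2920 ppm in RE cells, and *mt-Cytb*, for cytochrome b, at 2856 and 2962 ppm, 2879 and 2722 ppm, and 2923 and 2943 ppm. The E libraries overlapped with the M and with the RE libraries for both. Their log2 fold changes in E vs. M were -0.02 ± 0.16 and -0.06 ± 0.16 (SE), where the 76 genes had a median of -0.44.

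Of 9 regulators of nuclear genes for mitochondrial proteins, 2 rose and 3 fell in E vs. M, 1 rose in M vs. RE, and 2 rose and 2 fell in E vs. RE. Over all genes tested, 21.4% rose and 20.2% fell in E vs. M, 16.7% rose in M vs. RE, and 16.8% rose and 13.6% fell in E vs. RE. *Myc* was at 228 and 337 ppm in E, 84.6 and 71.0 ppm in M, and 115 and 115 ppm in RE cells. It was a DEG in both comparisons with E cells, at -1.84 ± 0.20 and -1.27 ± 0.20. *Ppargc1a*, a coactivator of mitochondrial biogenesis, was at 0.992 and 1.67 ppm in E, 0.128 and 0.269 ppm in M, and 8.60 and 5.23 ppm in RE cells. It was lowest in M and highest in RE cells with no overlap, and was a DEG in each comparison (-2.26, 4.55 and 2.29, each ± 0.39), though the fold changes of a gene this low depend on the pseudocount. Of its relatives, *Ppargc1b* fell by 1.02 and *Pprc1* rose by 0.60 in E vs. M. *Esrra*, a nuclear receptor, fell by 0.52 in E vs. RE. *Gabpa*, an ETS factor, rose by 0.80 in E vs. M and 0.50 in E vs. RE. *Nrf1* and *Yy1* did not pass in any comparison, with *Nrf1* between 49.7 and 69.1 ppm and *Yy1* between 62.9 and 75.1 ppm in the 6 libraries.

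Cytosolic ribosomal protein genes and nuclear genes for oxidative phosphorylation are near in function. Of 77 cytosolic ones tested, 34 fell in E vs. M and 48 in E vs. RE, and the medians of the 3 comparisons in turn were -0.54, -0.16 and -0.75. Over all genes tested, 20.2% fell and 21.4% rose in E vs. M, 15% fell and 16.7% rose in M vs. RE, and 13.6% fell in E vs. RE. Of 72 genes for oxidative phosphorylation, 20 fell and 1 rose in E vs. M, 2 fell and 1 rose in M vs. RE, and 17 fell in E vs. RE, with medians of -0.46, 0.03 and -0.39. Both groups were higher in the first than in the second E library, each with a median log2 difference of 0.40, as were the 76 genes. Proliferation genes moved otherwise: of 6, 4 rose in E vs. M and 5 fell in M vs. RE, and their summed level was 2619 to 2701 ppm in E, 3712 to 3980 ppm in M, and 2229 to 2535 ppm in RE cells. The 6 fibroblast markers summed to 136 and 167 ppm in E, 997 to 1134 ppm in M and 1065 to 1246 ppm in RE cells, with *Dcn* at 0 and 0.00684 ppm in M cells. The part of these in the levels of the 76 genes was not tested.

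The promoters of the members were searched for short motifs. A promoter window here is the 250 bases before and 50 bases after an annotated start (RefSeq, GRCm38.p6), and 67 of the 76 genes have at least 1, with 73 windows in all. The letters GCATGCGC (core of the site of Nrf1, a regulator of nuclear genes for mitochondrial proteins) were found on either strand in 11% of the members' windows, against 2.71% of all 32851 windows and 4.94% of the 11290 windows of genes tested. The letters CCGGAAG (core for ETS factors such as Gabpa) were in 32.9%, against 8.86% and 15.8%, and ATGGCGGC (core for Yy1) in 16.4%, against 2.24% and 4.29%. The members' windows held GGGCGG (GC box) in 52.1%, against 35.7% and 60.8%, CCAAT in 41.1%, against 37.4% and 37.4%, CACGTG (E-box, the same on both strands) in 9.59%, against 7.15% and 9.76%, and TATAAA in 6.85%, against 13.6% and 7.6%. GCATGCGC overlaps its own reverse complement where both occur together. The median GC content of the windows was 58.3% in the members, 52.7% in all genes and 60.3% in genes tested. A match is a description of the sequence and not a bound site, and neither Nrf1 nor Yy1 binding was measured.

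The 250 bases before the start are shown for 5 genes, 5′ to 3′ on the gene's strand, with matches to any of the 7 motifs on either strand in capitals. *Mrpl22* (chr11:58171414-58171663, plus strand), *Mrpl53* (chr6:83108858-83109107, plus) and *Mrpl32* (chr13:14613038-14613287, minus) are shown because they hold the Nrf1 or ETS letters more than once or together and fell in both comparisons with E cells. *Mrpl55* (chr11:59202236-59202485, plus) is the DEG of E vs. M, and *Mrps6* (chr16:92058086-92058335, plus) the gene that rose in M vs. RE. These 5 were chosen after their values and matches were seen. *Mrpl17*, *Mrpl33* and *Mrpl43* also hold the Nrf1 or ETS letters more than once or together, fell in both comparisons with E cells, and are not shown. *Mrpl9*, *Mrpl39*, *Mrpl52*, *Mrps16* and *Mrps18b* hold the letters in this way too and did not pass in E vs. M. Whether the letters go with the fall was not tested.
Mrpl22: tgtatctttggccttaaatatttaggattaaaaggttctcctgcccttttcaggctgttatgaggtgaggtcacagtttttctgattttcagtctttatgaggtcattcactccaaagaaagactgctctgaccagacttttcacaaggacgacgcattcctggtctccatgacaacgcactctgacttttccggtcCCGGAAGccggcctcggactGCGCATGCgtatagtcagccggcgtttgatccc
Mrpl53: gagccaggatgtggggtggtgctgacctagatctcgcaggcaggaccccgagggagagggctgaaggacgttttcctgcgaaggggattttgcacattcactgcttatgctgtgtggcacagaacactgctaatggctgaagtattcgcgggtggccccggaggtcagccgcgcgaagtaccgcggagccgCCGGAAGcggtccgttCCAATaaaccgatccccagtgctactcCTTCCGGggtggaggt
Mrpl32: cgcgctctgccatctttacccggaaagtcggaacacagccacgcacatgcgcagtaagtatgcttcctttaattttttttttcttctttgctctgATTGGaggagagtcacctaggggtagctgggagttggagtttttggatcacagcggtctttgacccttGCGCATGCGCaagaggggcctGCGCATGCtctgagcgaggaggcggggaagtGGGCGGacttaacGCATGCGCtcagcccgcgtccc
Mrpl55: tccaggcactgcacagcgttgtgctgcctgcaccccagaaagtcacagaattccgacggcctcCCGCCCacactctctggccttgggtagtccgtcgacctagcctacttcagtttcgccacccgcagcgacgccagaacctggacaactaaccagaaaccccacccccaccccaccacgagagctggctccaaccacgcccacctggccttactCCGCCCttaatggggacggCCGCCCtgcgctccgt
Mrps6: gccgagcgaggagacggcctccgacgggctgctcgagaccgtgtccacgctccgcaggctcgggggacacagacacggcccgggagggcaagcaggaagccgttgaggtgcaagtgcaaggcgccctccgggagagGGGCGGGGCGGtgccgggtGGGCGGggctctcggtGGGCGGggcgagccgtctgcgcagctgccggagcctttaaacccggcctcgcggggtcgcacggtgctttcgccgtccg

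In *Mrpl22* the ETS letters start at -53 and the reverse complement of the Nrf1 letters at -33, counted back from the start. In *Mrpl53* the ETS letters are at -59 and, reversed, at -16, with CCAAT between them at -43. *Mrpl32* holds the Nrf1 letters 4 times, at -87, -85, -66 and -22, of which the first pair overlap on opposite strands. *Mrpl55* and *Mrps6* hold neither the Nrf1 nor the ETS letters in their windows. *Mrpl55* has the GC box reversed at -187, -35 and -16, and *Mrps6* has it at -114, -109, -95 and -79. *Mrpl22*, *Mrpl53* and *Mrpl32* fell by 0.55, 0.48 and 0.73 in E vs. M and by 0.56, 0.58 and 0.67 in E vs. RE, and were at 16.8 and 15.2 ppm, 21.0 and 19.7 ppm, and 66.8 and 57.0 ppm in E cells.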

How the data were processed

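RNA of 2 E, 2 M and 2 RE libraries of the mouse line EpH4 was analysed. The labels name 3 extracted replicas and 2 sequenced ones per state, and no batch. Per the labels and the study's methods, the authors mapped unique reads to NCBI-m37 with Bowtie and TopHat2 and used edgeR for their own DEGs, with versions not given in the sources used here. The deposited table holds 1 whole number per gene and library, which was handled as signal, that is, coverage in sequenced bases summed per gene, since 44.8% to 48.4% of values from 1 to 400 are multiples of 50, taken as the read length. The summing step, its annotation and its use of strand are not given in the sources used here, so overlapping genes (19 of the 76 overlap another protein-coding gene) and copies may share coverage. The total is 1789125650 to 2396427835 bases per library.

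Coverage was scaled by unweighted TMM (30% of log ratios and 5% of levels trimmed) in R 4.3.3, with factors from 0.875 to 1.12, and fitted with limma 3.58.1 (trended empirical Bayes, group only, all 6 libraries). edgeR was not run on these values, which are not read counts. A gene entered where 2 or more libraries held 500 bases of it. Transcript length and GC content came from a newer annotation (GENCODE M21, GRCm38), matched by symbol for 12973 genes tested (93.4%) and all 76 members. Both are those of the longest protein-coding transcript of a symbol where it has one, which need not be the transcript expressed. Promoters and their coordinates came from RefSeq tables of GRCm38.p6, which is not the build the authors mapped to. The fit was run on simulated data with the same dispersion in every library and no length or GC trend. That run therefore does not bear on the difference between the E libraries.

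The members and all gene lists were chosen with earlier results of these data known. Named genes are the DEGs, the 4 with the highest and lowest log2 fold change in each comparison, the 3 highest and lowest per kilobase, the 3 with replicates farthest apart, the S18 relatives, *Mrpl37* and *Mrps30*, and up to 4 genes per list and comparison with the smallest adjusted p. Others named beside them were chosen after their values were seen. Alternatives were a fold change of 1.5, scaling by library totals or by median-of-ratios size factors, no filter or a filter in every library, a fit of the 2 groups alone, a replicate block, pseudocounts of 0.025 and 1, array weights, removal of each library's GC content and length trend (splines with 4 degrees of freedom) with and without the block, leaving out each library and, added after the data were seen, no fold threshold.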

Additional observations from a re-analysis of the deposited data

How the results depend on the processing

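The median log2 fold change of the 76 genes kept its direction in both comparisons with E cells under every alternative run. Leaving out 1 library gave -0.64 to -0.24 for E vs. M, -0.12 to -0.015 for M vs. RE, and -0.68 to -0.32 for E vs. RE. When scaled by library totals it was -0.74 in E vs. M, where all genes had -0.29. It was -0.16 there and -0.23 in E vs. RE with the GC content and length trend removed, with or without the replicate block. In M vs. RE it reversed to 0.15 with library totals, where all genes had 0.18.

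Counts of genes past an adjusted p of 0.05 by limma (27, 1 and 35) became 56 and 3 with library totals in the first pair of comparisons, when 47% and 33% of all genes passed. With only the 2 groups fitted they were 16, 16 and 13, against 31.3%, 56.2% and 17.6% of all genes. Array weights gave 17 (M vs. RE) and 19 (E vs. RE), against 55.9% and 22.6%. With the trend removed 6 passed in M vs. RE (4 with the block also), against 40.9% and 41.6%. Leaving out 1 library, with the lone sample left assumed to vary like the other groups, gave 4 (second M library) to 67 (second E), 0 (any M or RE) to 17 (first E) and 0 (first RE) to 65 (second E). DEGs (1, 0 and 1) became 12, 1 and 7 at a fold change of 1.5, 13, 1 and 7 with no fold threshold, 8, 1 and 3 with library totals, 0 in E vs. RE with only the 2 groups, and 0 (either M library) to 4 (second E), 0 to 0 and 0 (any but the second E) to 9 (second E) without 1 library. The cause of these moves was not tested.

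Deviations of same-numbered libraries from their group means correlated over all genes at 0.27 between E and M libraries, 0.058 between E and RE libraries and 0.12 between M and RE libraries. With 2 libraries per state, such values cannot show whether the replicate numbers pair the libraries. With the number as a block, 25, 1 and 33 genes passed, against 41.9%, 31.2% and 30.3% of all genes. With the trend removed as well 28, 4 and 29 passed, against 46.1%, 41.6% and 37%.

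Single genes that reversed were *Mrps2* in E vs. M (-0.034 with library totals), *Mrps27* in E vs. M (-0.26 with that scaling, and -0.21 to 0.25 without 1 library), *Mrpl3* in E vs. M (-0.37 to 0.21 without 1 library), *Mrps36* in E vs. M (0.32 with the trend removed, with and without the block, and -0.49 to 0.31 without 1 library) and in E vs. RE (-0.26 to 0.53 without 1 library), and *Mrpl41* in E vs. RE (0.018 with median-of-ratios factors, 0.42 with the trend removed, with and without the block, and -0.30 to 0.27 without 1 library). Coverage was low for *Mrpl23* and *Mrps36*, at 418 to 1740 bases per library, and for *Mrps33*, at 2740 to 4921 bases. The part of depth in the values of these and other genes was not tested.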

Other observations

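Some RNAs of the mitochondrial genome were listed far below the others. *mt-Co1*, *mt-Cytb*, *mt-Nd1*, *mt-Nd2* and *mt-Nd6* were each at 1674 ppm or more in every library, whereas *mt-Co3* was at 0.544 to 1.31 ppm, *mt-Atp6* at 1.42 to 2.60 ppm, *mt-Co2* at 4.72 to 9.54 ppm and *mt-Nd3* at 0.146 to 1.76 ppm. *Tufm*, the mitochondrial elongation factor Tu, was likewise at 4.45 to 6.65 ppm, where its partner *Tsfm* was at 26.0 to 55.5 ppm. The study mapped unique reads, and whether reads with more than 1 match were dropped is not given in the sources used here. The part of copies elsewhere in the genome was not tested. These values were noticed after the data were seen.

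Some members overlap genes that passed where the member did not. *Nr2c2*, a nuclear receptor gene that overlaps *Mrps25*, rose by 1.47 in E vs. M and by 1.62 in E vs. RE, with *Mrps25* at -0.26 and -0.44, neither of which passed. The E libraries were far apart for *Nr2c2*, at 16.5 and 36.0 ppm, and its transcript length is 7647 bases. *Cuedc1*, which overlaps *Mrps23*, was a DEG in E vs. M, at -1.22, with *Mrps23* at -0.45, which did not pass. *Klc4*, a kinesin light chain gene that overlaps *Mrpl2*, was a DEG in M vs. RE, at 1.20, with *Mrpl2* at 0.18, which did not pass. The part of the shared stretches in these values was not tested.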
